A study of Mus musculus with 10 samples.

Results

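Genes of the Bcl2 family were followed in mouse molars cultured with insulin-like growth factor 1 (IGF1). The 10 genes were picked by symbol, namely Bcl2, Bcl2l1, Mcl1, Bax, Bak1, Bid, Bcl2l11, Bbc3, Pmaip1 and Bmf, and all 10 are among the 18381 genes of the count table. The data are RNA-seq counts from 10 single first lower molars of wild type C57BL/6JOlaHsd embryos at embryonic day 14, the cap stage of tooth development. From each of 5 embryos, numbered 1, 2, 3, 4 and 6, one molar was kept for 6 h in a hanging drop with mouse recombinant IGF1 at 750 ng per ml, and the other molar had an equal volume of the vehicle, phosphate-buffered saline with bovine serum albumin. There are thus 5 IGF1 and 5 control teeth, and each comparison is made within embryos. Both groups had been dissected and cultured, so neither is a tooth straight from the jaw, and each library holds the epithelium and the mesenchyme of a whole tooth together with its vessels and blood.

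The Bcl2 family sets whether a cell opens the outer membrane of its mitochondria and dies by apoptosis. Its survival proteins (Bcl2, Bcl2l1 and Mcl1) hold the pore-forming effectors Bax and Bak1 in check, and the BH3-only proteins (Bid, Bcl2l11, Bbc3, Pmaip1 and Bmf) carry death signals by binding the survival proteins or by activating the effectors. IGF1 is a classic survival factor that acts through the kinases PI3K and Akt. Akt keeps FoxO transcription factors out of the nucleus, and Bcl2l11 and Bbc3 are known FoxO targets. In the tooth, apoptosis is best known from the enamel knot, the epithelial signalling centre of the cap stage, whose cells die when its task is done.

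None of the 10 genes passed the threshold with IGF1. In edgeR's quasi-likelihood test with embryo as a block, 0 of 10 had an adjusted p-value under 0.05 after Benjamini-Hochberg adjustment over 14504 genes, where 11.5% of all genes tested did (6.72% as higher and 4.76% as lower). At an unadjusted p under 0.05 the count was 2, Bak1 and Bmf, beside 26.5% of all genes. DESeq2's Wald test gave 0 of the 8 members for which it returned an adjusted p, beside 9.4% of all genes. Limma-voom gave 0 of 10, beside 12%, and edgeR without the block gave 0 of 10, beside 6.12%. In each of the 10 genes the range of the IGF1 teeth overlapped that of the controls. Among all genes 7.25% had groups that did not overlap, a share from which 0 of 10 is not far. One gene, Bak1, differed in the same direction in all 5 embryos, beside 24.2% of all genes. The median log2 fold change of the 10 was -0.013, and that of all genes was -0.0038. The median size of the log2 fold change, whatever its sign, was 0.17 in the 10 and 0.16 in all genes. The 95% intervals lay within a 1.5-fold change in either direction for 7 of the 10 genes and within a 2-fold change for 8. The intervals of Bbc3 and Pmaip1, which have few counts, reached past a 2-fold change.

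Total counts per tooth ran from 2845773 to 8403151 in the controls (median 6899838) and from 3456634 to 8763113 with IGF1 (median 7080190), and both teeth of embryo 1 were the shallowest of their groups. All 14 epithelial and all 13 mesenchymal marker genes had counts in every tooth. Summed levels overlapped between the groups for both lists, with 3203 to 4693 CPM (counts scaled to a common library size) in the controls and 3626 to 4948 with IGF1 for the epithelium, and 7331 to 9482 against 6700 to 9296 for the mesenchyme. Within embryos the epithelial sum was higher with IGF1 in 3 of 5, with 1 of 14 genes past the threshold as higher (7.14%, beside 6.72% of all genes), and the mesenchymal sum was lower in 4 of 5, with 3 of 13 genes past it as lower (23.1%, beside 4.76% of all genes). The endothelial, macrophage and red blood cell sums were lower with IGF1 in 5 of 5 embryos. The 8 endothelial genes summed to 389 to 447 CPM in the controls and 309 to 406 with IGF1, and the 10 macrophage genes to 76.2 to 106 and 66.0 to 95.3. Past the threshold as lower were 6 of 7 tested red blood cell genes, 2 of 8 endothelial genes and 1 of 9 tested macrophage genes. The sum of 7 glial and neuronal genes was higher with IGF1 in 4 of 5 embryos (19.0 to 26.8 CPM in the controls and 19.5 to 34.7 with IGF1), with 1 of 2 tested genes past the threshold as higher and Sox10 and Foxd3 among those at 0 in at least one tooth. The 8 red blood cell genes summed to 864 to 1443 CPM in the controls and 613 to 1120 with IGF1. The 8 muscle genes summed to 27.3 to 101 CPM in the controls and 16.5 to 127 with IGF1, lower in 4 of 5 embryos, with Myog, Myf5 and Acta1 at 0 in at least one tooth. The 7 bone genes summed to 357 to 1121 CPM in the controls and 276 to 1369 with IGF1, also lower in 4 of 5 embryos, with Bglap and Bglap2 at 0 in at least one tooth. The part of these cell types in the values of the Bcl2 family was not tested. In whole teeth, fewer cells of a type and less RNA per cell cannot be told apart.

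None of the 3 survival genes passed the threshold, and their log2 fold changes lay between -0.096 and 0.0019. Values are CPM after TMM normalization, which compares a gene between teeth but not with another gene, and they follow the order of embryos 1, 2, 3, 4 and 6. Mcl1 (chr3:95658788-95663176 on GRCm38, plus strand) encodes a short-lived survival protein that many embryonic tissues need. It stood at 92.8, 117, 107, 98.7 and 123 CPM in the controls and at 93.3, 105, 116, 102 and 122 with IGF1. The control teeth of embryos 2 and 6 were the highest of their group and that of embryo 1 the lowest, and all IGF1 teeth lay within the control range. Its log2 fold change was 0.0019 (SE 0.069, 95% interval -0.15 to 0.15, edgeR adjusted p = 0.99), and 3 of 5 embryos were higher. Of the 10 genes, Mcl1 had the narrowest interval.

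Bcl2, the founding member (chr1:106538178-106714274, minus strand), had 54.3, 81.7, 69.9, 61.4 and 83.1 CPM in the controls. With IGF1 it had 60.2, 66.2, 63.2, 65.2 and 71.8 CPM. All IGF1 teeth lay inside the range of the controls, so that the spread was narrower with IGF1 (SD 4.29, n = 5) than without (SD 12.5, n = 5), a difference in spread that was not tested. Its log2 fold change was -0.096 (SE 0.085, interval -0.28 to 0.090, edgeR adjusted p = 0.519), and the IGF1 tooth was higher in embryos 1 and 4 and lower in the other three. Without embryo 1 the value was -0.14, and without embryo 2 it was -0.043. Bcl2l1 (chr2:152780668-152831728, minus strand), whose main product is the survival protein Bcl-xL, had 57.4, 44.0, 46.5, 51.3 and 49.5 CPM in the controls and 52.7, 42.4, 51.0, 44.3 and 51.0 with IGF1. Its groups overlapped almost fully, and its log2 fold change was -0.039 (SE 0.080, interval -0.22 to 0.14, edgeR adjusted p = 0.807). Counts are per gene, so the long survival form and the short death form of Bcl2l1 were not separated.

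**Figure D1:**
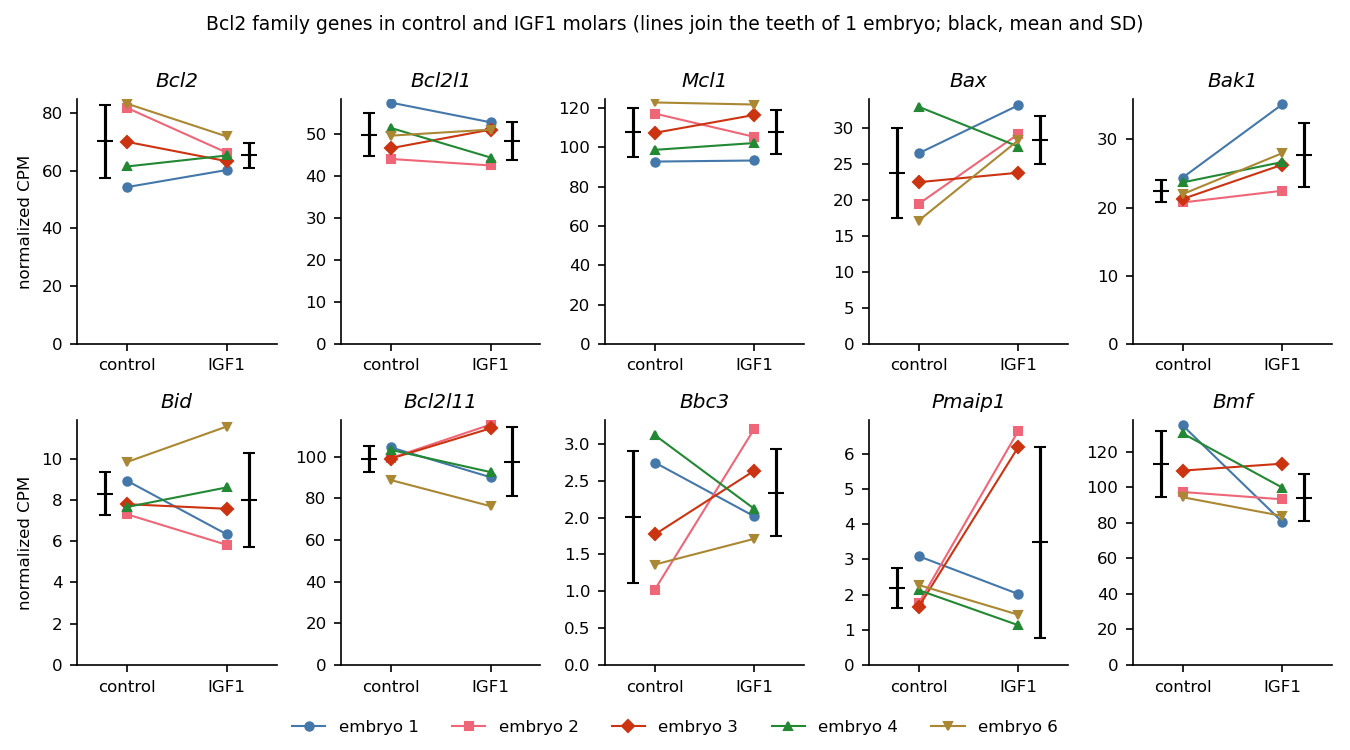
Normalized CPM (y axis, from 0) of the 10 Bcl2 family genes in control and IGF1 molars, with a line joining the teeth of each of 5 embryos and the mean and SD of each group in black. Bak1 is higher with IGF1 along all 5 lines without passing the test, and Pmaip1 splits, with the IGF1 teeth of embryos 2 and 3 at 6.66 and 6.20 CPM.

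The pore-forming effectors had higher means with IGF1, and neither passed the threshold. Bak1 (chr17:27019810-27029009, minus strand), which sits in the mitochondrial membrane already in healthy cells, had 24.4, 20.7, 21.3, 23.7 and 22 CPM in the controls. With IGF1 it had 35.1, 22.5, 26.3, 26.7 and 28.0 CPM. The IGF1 tooth was the higher one in 5 of 5 embryos, most in embryo 1, and only the IGF1 tooth of embryo 2 fell within the control range. The log2 fold change was 0.29 (SE 0.10, interval 0.066 to 0.50), and the edgeR adjusted p was 0.0921, with a range of 0.0895 to 0.282 over 11 alternatives. Both gene records of Ggnbp1 lie across Bak1 on the opposite strand, and with no strand stated for the counting their reads cannot be told apart where they overlap.

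Bax (chr7:45461697-45466898, minus strand) moves from the cytosol to mitochondria when activated and is a known p53 target. It had 26.5, 19.4, 22.4, 32.9 and 17.1 CPM in the controls and 33.1, 29.1, 23.8, 27.4 and 28.3 with IGF1. The IGF1 tooth was higher in embryos 1, 2, 3 and 6 and lower in embryo 4, whose control tooth had the most Bax of the controls. The log2 fold change was 0.28 (SE 0.14, interval -0.033 to 0.59, edgeR adjusted p = 0.243), and without embryo 4 it was 0.43 with an edgeR adjusted p of 0.0979. Without embryo 6 it was 0.16. As for Bcl2, the controls spread more widely (SD 6.24, n = 5) than the IGF1 teeth (SD 3.37, n = 5). The protein-coding gene record Gm45808 overlaps Bax on the same strand and is absent from the count table. How reads of the shared stretch were assigned is not given in the sources used here.

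Among the controls the order of the teeth by Bax was nearly the reverse of their order by Bcl2. Embryos 2 and 6 had the most Bcl2 and the least Bax, and embryos 1 and 4 had the least Bcl2 and the most Bax. The ratio of Bcl2 to Bax CPM was thus 2.05, 4.20, 3.12, 1.87 and 4.86 in the controls of embryos 1, 2, 3, 4 and 6. With IGF1 it was 1.82, 2.27, 2.66, 2.38 and 2.54. The IGF1 teeth lay close together, and the ratio was lower than in the paired control in 4 of 5 embryos, with a mean log2 change of -0.37 (SD 0.54, n = 5) that is smaller than its spread. Without each embryo in turn this mean ran from -0.56 (without embryo 4) to -0.23 (without embryo 6). Among the controls the share of counts from 13 mitochondrial genes was 2.45%, 3.28%, 2.64%, 2.17% and 2.94%, highest in embryos 2 and 6, as for Bcl2, and lowest in embryos 4 and 1, and with IGF1 it was 2.51%, 2.09%, 2.07%, 2.05% and 2.17%. The part of this share in the Bcl2 and Bax values was not tested.

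Bcl2l11, known as Bim, and Bbc3, known as Puma, are the BH3-only genes through which FoxO factors are best known to act. On that background the forkhead letters GTAAACA, which read TGTTTAC on the other strand, were searched in windows around each RefSeq gene start on GRCm38.p6. Each window begins 250 bases before the start and ends shortly after it. Only the 250 bases before the start were searched, for these letters and for the hypoxia core letters given below, and shares of windows refer to that part. The letters stand in 3.17% of 32851 start windows. Among 16 windows matched to 9 of the 10 genes they stand in 2, one of Bcl2l11 and one of Bbc3. The stretches around them are given 5′ to 3′ on the plus strand, with the letters searched in capitals. That of Bcl2l11 (chr2:128125788-128125857) lies upstream of the gene, with the match from base -227 to -221 of the start. That of Bbc3 (chr7:16310054-16310140) lies within an intron of the gene and before a downstream start, with the match from base -167 to -161.
Bcl2l11: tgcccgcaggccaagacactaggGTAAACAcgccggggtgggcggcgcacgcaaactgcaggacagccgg
Bbc3: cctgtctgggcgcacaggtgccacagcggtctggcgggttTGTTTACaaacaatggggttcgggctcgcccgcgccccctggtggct
A match of letters is a description of the sequence and not a measured site.

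Bcl2l11 (chr2:128126038-128162547, plus strand) encodes a BH3-only protein that can bind every survival protein. It had 104, 99.3, 99.1, 103 and 88.8 CPM in the controls, a narrow group (SD 6.18, n = 5). With IGF1 it had 90.1, 115, 114, 92.6 and 76.2 CPM (SD 16.7, n = 5). Embryos 2 and 3 were above each control tooth and embryo 6 below each of them, so the IGF1 teeth lay to both sides of the controls. Over all embryos the log2 fold change was -0.028 (SE 0.088, interval -0.22 to 0.17, edgeR adjusted p = 0.883). The interval thus holds the mean change of Bcl2l11 to less than 1.5-fold in either direction.

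Bbc3 (chr7:16308393-16318205, plus strand) is induced by p53 and by FoxO3 and was close to the lower limit of these libraries, with 7 to 27 counts per tooth. It had 2.75, 1.02, 1.77, 3.12 and 1.36 CPM in the controls and 2.02, 3.21, 2.64, 2.12 and 1.71 with IGF1. The groups overlapped, with embryos 2, 3 and 6 higher and embryos 1 and 4 lower with IGF1. With a log2 fold change of 0.32 (SE 0.36, edgeR adjusted p = 0.624), its interval of -0.48 to 1.13 reached past a 2-fold increase. Without embryo 2 the log2 fold change was -0.0042, and without embryo 4 it was 0.59.

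Pmaip1 (chr18:66458533-66465565, plus strand), known as Noxa, encodes a small BH3-only protein that binds Mcl1, and p53 and hypoxia are both known to induce it. It had 3.09, 1.75, 1.65, 2.13 and 2.27 CPM in the controls and 2.02, 6.66, 6.20, 1.13 and 1.43 with IGF1. Embryos 2 and 3 had more than each control tooth, from 12 and 14 counts in the control to 56 and 54 with IGF1, while embryos 1, 4 and 6 had less than their paired control. Within embryos the log2 differences were -0.55, 1.76, 1.73, -0.76 and -0.57. The log2 fold change was 0.56 (SE 0.48, interval -0.50 to 1.62, edgeR adjusted p = 0.509), the widest interval of the 10. It was 0.12 without embryo 2, 0.11 without embryo 3, 0.87 without embryo 4 and 0.84 without embryo 6. The ratio of Mcl1 to Pmaip1 CPM was 30.0, 66.8, 64.9, 46.4 and 54.1 in the controls and 46.3, 15.8, 18.8, 90.5 and 85.3 with IGF1, and it was lowest in the IGF1 teeth of embryos 2 and 3.

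Hypoxia response genes also differed between embryos. Over 22 tested genes of this list, which holds Bnip3 but none of the 10, the median log2 difference between IGF1 and control was 0.65, 2.78, 2.42, 0.96 and 0.89 in embryos 1, 2, 3, 4 and 6. Of these 22 genes 20 passed the threshold as higher, beside 6.72% of all genes, and the summed level of the 23 listed was 1581 to 2444 CPM in the controls and 3066 to 10193 with IGF1, with no overlap. Embryos 2 and 3 thus had the largest hypoxia medians, and they were the embryos in which Pmaip1 and Bcl2l11 were higher with IGF1. Bbc3 had its largest within-embryo values there too, with log2 differences of 1.41 and 0.50, and 0.28 in embryo 6. So did Bmf, at -0.06 and 0.05. The rest of the 10 genes had another order. Bcl2 and Bid were lower with IGF1 in embryos 2 and 3, and Bcl2l1 and Mcl1 were lower in embryo 2 and higher in embryo 3. Bak1 had its largest log2 difference in embryo 1 (0.52) and Bax in embryo 6 (0.71). The embryos were compared in this way after their values had been seen, and the part of the hypoxia response in these values was not tested.

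**Figure D2:**
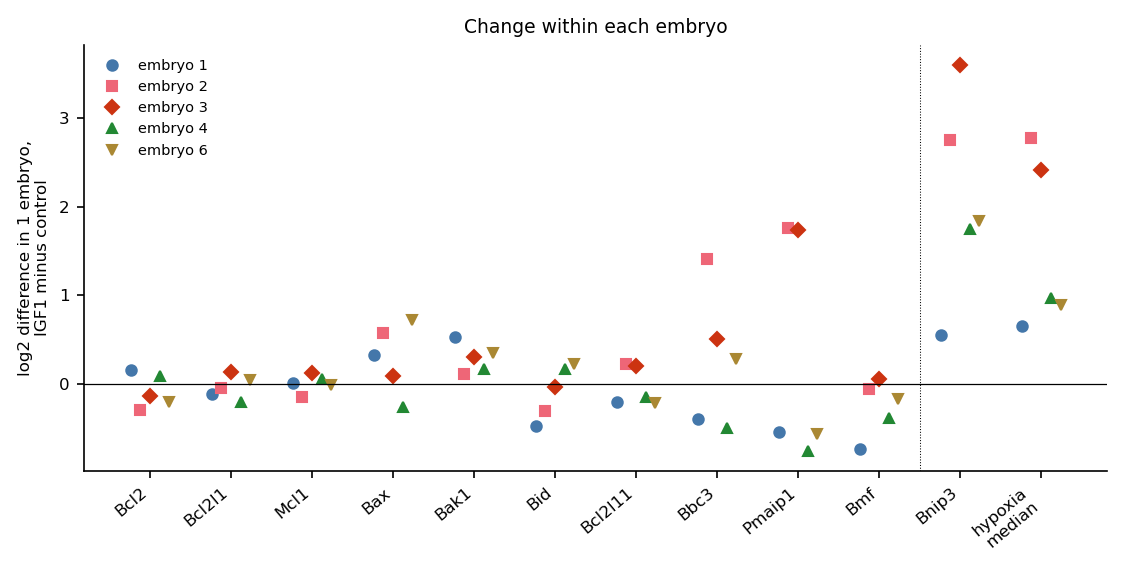
Log2 difference between the IGF1 and the control molar of each embryo (y axis) for the 10 Bcl2 family genes, for Bnip3 and for the median of 22 hypoxia response genes. Embryos 2 and 3 lie at 1.76 and 1.73 for Pmaip1 and at 2.78 and 2.42 for the hypoxia median, and the other three embryos lie lower in both.

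Bmf (chr2:118528757-118549687, minus strand) encodes a BH3-only protein that is held at the cytoskeleton by a dynein light chain and freed when cells detach. It had 135, 97.4, 109, 130 and 94.5 CPM in the controls and 80.6, 93.3, 113, 99.9 and 83.9 with IGF1. It was lower with IGF1 in 4 of 5 embryos, by a log2 difference of -0.06 in embryo 2, and higher by 0.05 in embryo 3, and most of the difference came from embryos 1 and 4, whose control teeth were the highest. The log2 fold change was -0.25 (SE 0.10, interval -0.48 to -0.020), and the edgeR adjusted p was 0.154, with a range of 0.0785 to 0.403 over 11 alternatives. Without embryo 1 the log2 fold change was -0.14. The control teeth of embryos 1 and 4, with the most Bmf, were also those with the most Bax and the most Bbc3.

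Bid (chr6:120891930-120916853, minus strand) links death receptors to mitochondria after caspase 8 cuts it. It had 8.93, 7.30, 7.80, 7.66 and 9.84 CPM in the controls and 6.34, 5.82, 7.57, 8.61 and 11.6 with IGF1. Embryos 4 and 6 were higher and the other three lower with IGF1, and the log2 fold change was -0.058 (SE 0.17, interval -0.43 to 0.32, edgeR adjusted p = 0.870). Bid overlaps Bcl2l13 on the opposite strand, so reads of the shared stretch could be split between them. Bcl2l13 itself, an outer membrane family protein, had a log2 fold change of 0.018 (edgeR adjusted p = 0.911).

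Between genes, levels were set side by side as CPM per kilobase of annotated exon, which overstates the length of genes with several transcript forms and so understates their level. In the controls the order was Mcl1 with a mean of 31.5 (SD 3.65, n = 5), Bmf with 21.6, Bax with 15.0, Bcl2l11 with 12.3, Bcl2l1 with 10.8, Bak1 with 9.31, Bcl2 with 7.65, Bid with 2.34, Bbc3 with 0.944 and Pmaip1 with 0.798. Of the 9 neighbouring pairs in this order, 3 had no overlap between their teeth. Mcl1 lay above Bmf in each tooth, Bcl2 above Bid and Bid above Bbc3. From Bmf down to Bcl2 the range of each gene overlapped the next, as did those of Bbc3 and Pmaip1. Within the same control tooth, however, Bmf lay above Bax in 5 of 5 teeth (mean gap 6.57, SD 1.79, n = 5), as did Bcl2l11 above Bcl2l1 (1.48, SD 1.09) and Bcl2l1 above Bak1 (1.54, SD 0.531). For Bax over Bcl2l11, Bak1 over Bcl2 and Bbc3 over Pmaip1 the mean gap was smaller than its SD, with the order held in 3, 4 and 3 of 5 teeth. With IGF1, Mcl1 again had the highest mean (31.5, SD 3.33, n = 5), and Bax (18.0) and Bmf (17.9) overlapped. Pmaip1 (1.28) and Bbc3 (1.10) exchanged places by mean with overlapping teeth, and so did Bak1 (11.5) and Bcl2l1 (10.5). Within the same IGF1 tooth, however, Pmaip1 lay above Bbc3 in only 2 of 5 teeth (mean gap 0.17, SD 0.75, n = 5). Bak1 lay above Bcl2l1 in 4 of 5 (0.98, SD 1.33), and Bax above Bmf in 3 of 5 (0.035, SD 4.51). The spread among teeth also differed between genes. In the controls the coefficient of variation ran from 6.25% in Bcl2l11 to 44.8% in Bbc3, and with IGF1 from 6.57% in Bcl2 to 77.7% in Pmaip1.

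**Figure D3:**
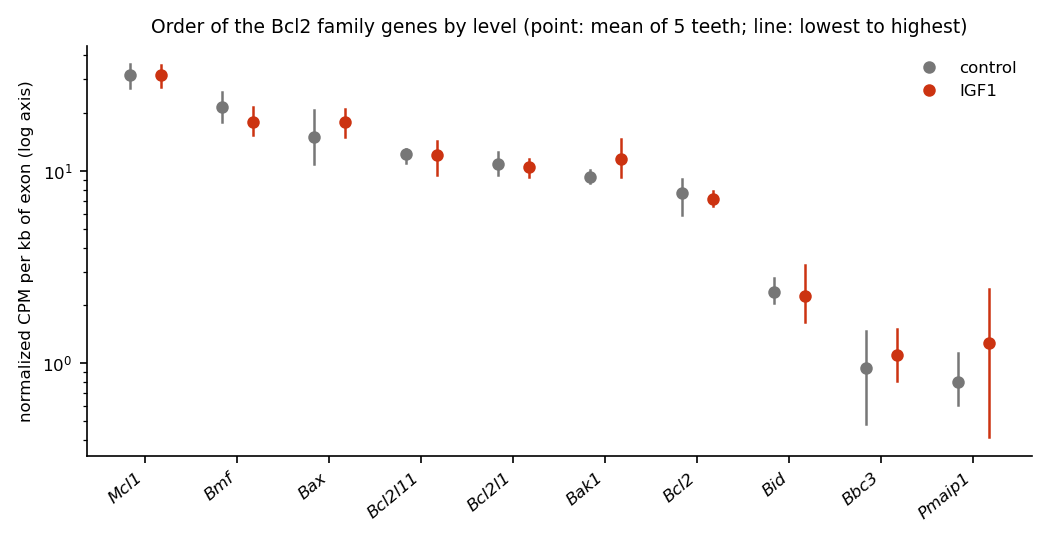
Normalized CPM per kilobase of exon (log y axis) of the 10 genes, ordered by the control mean, with the mean of 5 teeth as a point and the lowest to highest tooth as a line. Mcl1 is highest in both groups (31.5 in each), and Bid, Bbc3 and Pmaip1 lie lowest.

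Of the other family genes, 1 of 7 tested passed the threshold. The median log2 fold change of the 7 was 0.29, beside -0.0038 in all genes. In edgeR's test 4 of the 7 had an unadjusted p under 0.05, beside 26.5% of all genes. Bnip3, a BH3-like protein of mitochondria that serves in mitophagy and is a classic target of hypoxia-inducible factor, was the only one of 7 tested to pass the threshold (14.3%, beside 11.5% of all genes). It had 37.4, 32.9, 14.4, 18.0 and 12.4 CPM in the controls and 54.7, 223, 178, 61.0 and 45.0 with IGF1. Each IGF1 tooth was above every control tooth, with the largest values in embryos 2 and 3, and the log2 fold change was 2.20 (SE 0.33, edgeR adjusted p = 0.00193, higher in 5 of 5 embryos). The hypoxia core letters ACGTG, which read CACGT on the other strand, stand in 16.6% of the 32851 start windows, and in the window of Bnip3 they form the palindrome CACGTG, which also reads as an E-box, from base -108 to -103 of the start. The stretch around it (chr7:138909569-138909654, minus strand, upstream of the gene) is shown 5′ to 3′ because Bnip3 is the family gene that passed the threshold.
Bnip3: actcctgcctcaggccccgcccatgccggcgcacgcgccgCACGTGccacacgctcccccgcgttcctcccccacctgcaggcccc
Among the 16 windows matched to 9 of the 10 genes, the core letters stand in 2, a window of Bax and a window of Bbc3. In both they form the same palindrome, and neither gene passed the threshold.

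Bnip3l, its close relative in mitophagy, had 145, 165, 143, 137 and 142 CPM in the controls and 147, 258, 268, 133 and 117 with IGF1. Embryos 2 and 3 were again the high ones, and the log2 fold change over all embryos was 0.26 (SE 0.15, edgeR adjusted p = 0.315). It was 0.15 without embryo 2, 0.084 without embryo 3 and 0.39 without embryo 6. Bok, a pore-forming relative of Bax and Bak1, had a log2 fold change of 0.54 (SE 0.18, edgeR adjusted p = 0.0844), was higher in 4 of 5 embryos, and passed the threshold when embryo 2 was left out (0.68, edgeR adjusted p = 0.0495). The survival gene Bcl2l2 had 0.30 (SE 0.11, edgeR adjusted p = 0.0954) and the BH3-only gene Bad 0.20 (SE 0.14, edgeR adjusted p = 0.407), the latter at 0.12 without embryo 1 or 2. Bik and Hrk, both BH3-only genes, were too low to be tested, with 2 to 11 and 1 to 18 counts per tooth. Hrk had 0.344, 0.438, 0.118, 0.142 and 0.151 CPM in the controls and 1.15, 2.14, 1.61, 0.141 and 0.143 with IGF1, most in embryo 2, at counts too few for more than a listing.

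**Figure D4:**
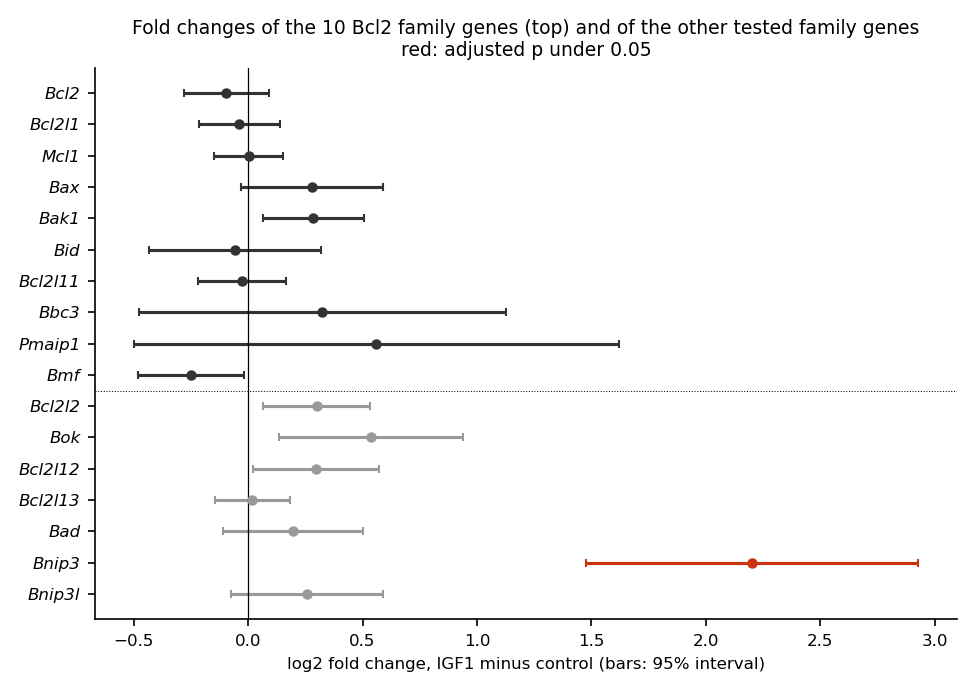
Log2 fold change between IGF1 and control molars (x axis) with its 95% interval for the 10 Bcl2 family genes, above the dotted line, and the other 7 tested family genes. Bnip3, at 2.20, is the one gene in red, past an adjusted p of 0.05.

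Proteins that hold family members or turn them over showed 4 of 17 genes higher and 0 lower (23.5%, beside 11.5% of all genes), with a median log2 fold change of 0.15. The dynein light chains Dynll1 and Dynll2, which tether Bcl2l11 and Bmf at the cytoskeleton, had log2 fold changes of 0.33 and 0.37 (edgeR adjusted p = 0.0423 and 0.00773). The phosphoserine-binding adaptors Ywhag and Ywhaq, of the family that holds phosphorylated Bad in the cytosol, had 0.41 and 0.32 (edgeR adjusted p = 0.00151 and 0.0195). All 4 were higher in 5 of 5 embryos. Without the replicate block Dynll1 and Dynll2 were not past the threshold (edgeR adjusted p = 0.154 and 0.140), and 2 of the 17 were. Dynll1 was also not past it without embryo 1, 2, 4 or 6 (0.0545 to 0.161), nor was Ywhaq without embryo 1, 4 or 6 (0.0510 to 0.0932), and the count of the list was 2 without embryo 1, 4 or 6. These genes have close paralogs among which the authors' counting could split reads. Huwe1 and Usp9x, which add ubiquitin to Mcl1 and remove it, had log2 fold changes of 0.089 and -0.037 (edgeR adjusted p = 0.419 and 0.764).

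Downstream of mitochondria, 2 of 18 genes were higher and 0 lower (11.1%, about the share in all genes), with a median log2 fold change of -0.013. They were Cycs, the cytochrome c that activates the apoptosome and carries electrons in respiration, and Aifm1, a mitochondrial oxidoreductase. Cycs had 18.2, 21.3, 20.1, 21.6 and 27.4 CPM in the controls and 29.1, 25.9, 31.9, 35.6 and 44.3 with IGF1, higher in 5 of 5 embryos (log2 fold change 0.61, SE 0.10, edgeR adjusted p = 0.00342). Aifm1 had 0.37 (edgeR adjusted p = 0.0176), and it was not past the threshold in DESeq2's test (adjusted p = 0.0504), without the block (edgeR adjusted p = 0.0671) or without embryo 1 or 6 (edgeR adjusted p = 0.0543 and 0.0770), each of which left Cycs as the only gene of the list. Both work in respiration as well as in death. The apoptosome protease Casp9 and its scaffold Apaf1 did not pass (log2 fold changes 0.11 and -0.022, edgeR adjusted p = 0.635 and 0.913).

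On the death receptor side 1 of 12 genes passed (8.33%, beside 11.5% of all genes), and the median log2 fold change was -0.077. Fas, the receptor that leads to Bid through caspase 8, fell. It had 8.25, 10.2, 9.21, 7.94 and 8.63 CPM in the controls and 3.46, 7.61, 3.90, 3.11 and 3.71 with IGF1. Each IGF1 tooth lay below every control tooth, closest in embryo 2, and the log2 fold change was -1.06 (SE 0.20, edgeR adjusted p = 0.00736, lower in 5 of 5 embryos). The adaptor Fadd and the protease Casp8 had log2 fold changes of 0.13 and 0.12 (edgeR adjusted p = 0.617 and 0.505).

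Of 16 transcription factors known to act on family genes, 5 passed the threshold, 2 higher and 3 lower (31.2%, beside 11.5% of all genes, with a median log2 fold change of -0.068). Trp73, the p53 relative that can induce Bbc3, fell in 5 of 5 embryos, with 51.5, 25, 34.4, 34.0 and 35.7 CPM in the controls and 24.2, 10.6, 20.7, 15.7 and 18.3 with IGF1 (log2 fold change -1.02, SE 0.10, edgeR adjusted p = 0.000186). Myc and Foxo4 were lower as well (log2 fold changes -0.55 and -0.36, edgeR adjusted p = 0.00389 and 0.0138). E2f1, a driver of S phase, and Atf4, the factor of the integrated stress response, were higher (0.56 and 0.41, edgeR adjusted p = 0.00646 and 0.0197). Foxo4 was not past the threshold without the block (edgeR adjusted p = 0.0728) or without embryo 4 (0.0570), and Atf4 was not past it without embryo 4 or 6 (0.0666 and 0.0516). Without embryo 4 the list had 3 genes past the threshold. Foxo1, Foxo3 and Trp53 had log2 fold changes of 0.11, 0.081 and 0.048 (edgeR adjusted p = 0.481, 0.732 and 0.744). RNA levels do not show where FoxO proteins were in the cell.

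Of 19 tested target genes of p53, 2 were higher and 0 lower (10.5%, about the share in all genes), with a median log2 fold change of 0.18. Ccng1, a cyclin G, had 65.3, 90.9, 77.5, 99.3 and 67.7 CPM in the controls and 90.7, 178, 174, 97.0 and 88.5 with IGF1. Embryos 2 and 3 had the largest rise, as for Pmaip1, and embryo 4 had none (log2 fold change 0.60, SE 0.15, edgeR adjusted p = 0.0244, higher in 4 of 5 embryos). Tigar, a phosphatase that slows glycolysis, had 0.77 (SE 0.20, edgeR adjusted p = 0.0306, higher in 5 of 5 embryos). Neither passed in DESeq2's test (adjusted p = 0.0575 and 0.0755) or without the block (edgeR adjusted p = 0.0916 and 0.0900). Other genes of the list, looked up after the counts had been seen, passed there instead. Sesn2, a stress-induced sestrin with an edgeR adjusted p of 0.0548 in the blocked test, passed in DESeq2's test (adjusted p = 0.0166) and without the block (edgeR adjusted p = 0.0411), and Zmat3 passed in DESeq2's test (adjusted p = 0.0409). Ccng1 was not past the threshold without embryo 1, 2, 3 or 6 (edgeR adjusted p = 0.0510 to 0.0809) and Tigar without embryo 2, 4 or 6 (0.0675 to 0.143), and the count of the list was 0 without embryo 2 or 6, 1 without embryo 1, 2 without embryo 3 and 3 without embryo 4. One of the calls without embryo 3 was in the lower direction, that of Perp (log2 fold change -0.29, edgeR adjusted p = 0.0492). The best known targets Cdkn1a and Mdm2 had log2 fold changes of 0.37 and -0.064 (edgeR adjusted p = 0.402 and 0.774).

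**Figure D5:**
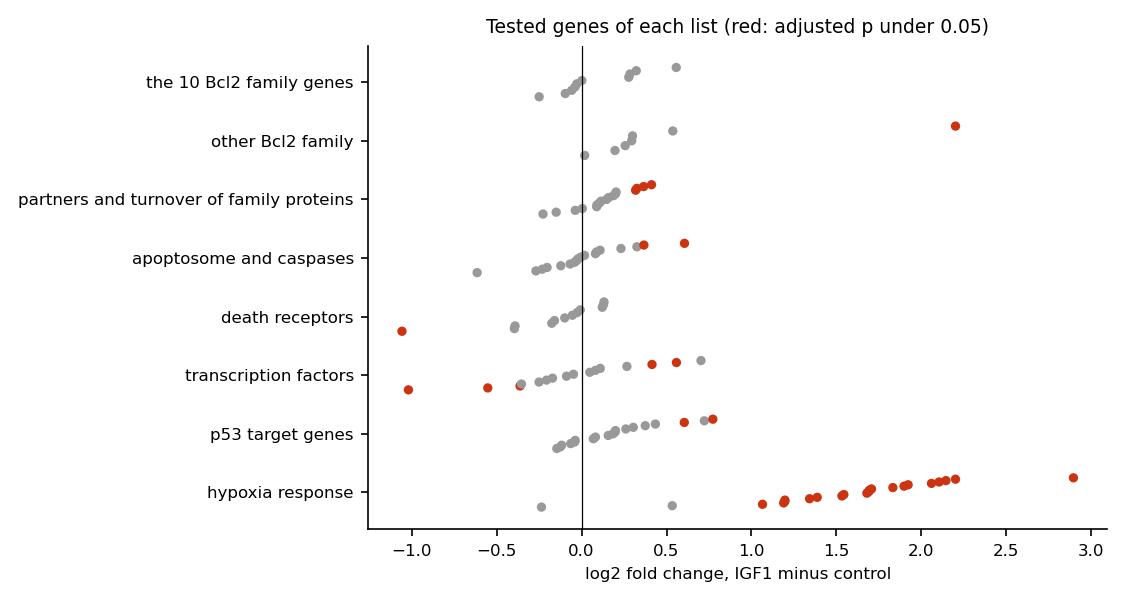
Log2 fold change between IGF1 and control molars (x axis) of each tested gene in 8 lists, with genes past an adjusted p of 0.05 in red. The 10 Bcl2 family genes have none in red, and 20 of the 22 hypoxia response genes are red.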

How the data were processed

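Each of the 10 libraries is a single molar. The authors deposited estimated counts per Ensembl gene, not normalized and whole as deposited (0 values changed on rounding), and every row sums to at least 10. The submitters' processing notes name FastQC 0.11.8, Trimmomatic 0.39, Salmon 0.99.0, DESeq2 and GRCm38; the transcript set, the row filter and strand use are not given in the sources used here. Symbols, positions and exon lengths came from GENCODE M21 (18287 of 18381 identifiers matched). The paper that came with the series describes another experiment, so the design follows the labels.

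Counts were tested with edgeR 4.0.16 (quasi-likelihood, TMM, filterByExpr, 14504 genes), with embryo as a replicate block, since the labels pair the IGF1 and control molar of each embryo. After group means were subtracted, the paired teeth of embryos 1, 2, 3, 4 and 6 had correlations over genes of 0.319, 0.208, -0.0389, 0.170 and 0.313. Between control and IGF1 teeth of different embryos the median correlation was -0.046, and the value of embryo 3 lay close to it. SE and 95% intervals derive from the F statistic. The test was also checked on 5 sets of simulated counts, with 200 of 14504 genes changed by a log2 of 1. On average 83.3% of the changed genes were called, and 6.22% of the calls were unchanged genes. No embryo effect and no smaller change was simulated. No pair of libraries of a group agreed within sampling noise (chi-square per degree of freedom 4.68 to 19.4), so none was counted as deposited more than once.

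Within-embryo differences are of log2 CPM with a prior count of 2. The named genes are the 10 members, set family genes and those past the threshold in each list; genes of like pattern were to be named only for members past the threshold, of which there were 0. A list symbol with 2 identifiers took the row with more counts. Members and lists were chosen with earlier results of these data known. Alternatives were DESeq2 1.42.0 (size factors, Wald test), limma 3.58.1 voom, other filters, no block and leaving out each embryo. R 4.3.3 and Python 3.11.15 were used.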

Additional observations from a re-analysis of the deposited data

Results flagged for a closer look

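A tooth was looked for that stood far from the other 4 of its group, by its gap to the nearest tooth over the range of the group, in 58 groups of 29 named genes. There were 4 such groups, where about 2.9 would be by chance, and 0 among the 20 groups of the 10 Bcl2 family genes. With IGF1, embryo 2 lay far from the rest for Fas, where its 7.61 CPM compare with 3.11 to 3.90 (gap over range 0.823), and for Bok, where its 8.32 CPM compare with 11.6 to 12.6 (0.771). For Bad it was embryo 1 with IGF1, at 21.6 CPM beside 14.5 to 16.5 (0.711). For Bnip3l it was the control molar of embryo 2, at 165 CPM beside 137 to 145 (0.711). Causes were not tested.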

How the results depend on the processing

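The count of 0 among the 10 Bcl2 family genes held in all 11 alternatives, with adjusted p-values for 8 of the genes in DESeq2's Wald test and with at least 10 counts in every sample, where Bbc3 and Pmaip1 had none. Of 106 values of their log2 fold changes 97 kept direction and side of the threshold and 9 changed sign close to 0, all when an embryo was left out. The ranges were then -0.089 to 0.0054 for Bcl2l1, -0.033 to 0.042 for Mcl1, -0.15 to 0.016 for Bid, -0.092 to 0.016 for Bcl2l11 and -0.0042 to 0.59 for Bbc3. Sign changes were at 0.0054 (Bcl2l1, without embryo 4), -0.033 and -0.010 (Mcl1, without 3 or 4), 0.016 and 0.010 (Bid, without 1 or 2), 0.013, 0.0053 and 0.016 (Bcl2l11, without 1, 4 or 6) and -0.0042 (Bbc3, without 2).

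Without the replicate block the number of genes that passed was 887 rather than 1666, and 885 of the 887 passed with it too; 2 genes of the partner list, 1 of the apoptosome list and 1 of the p53 list passed, and the block changed no call among the 10. DESeq2's Wald test gave 1 in the apoptosome list. Leaving out an embryo gave 986 (without embryo 4) to 1602 genes, and 1 to 2 in the other family list, 2 to 4 in the partner list, 1 to 2 in the apoptosome list, 3 to 7 in the transcription factor list and 0 to 3 in the p53 list. Fewer samples then enter; otherwise the cause was not tested. Among 19 other named genes, 28 of 209 values lost the call, 1 gained it (Bok) and 0 changed sign. Mean log2 changes of the ratios, left out by embryo as an alternative chosen after the data had been seen, ran from -0.56 to -0.23 for Bcl2 to Bax, -0.0090 to 0.14 for Mcl1 to Bcl2l11 and -0.65 to 0.11 for Mcl1 to Pmaip1. The order of the 10 genes by mean level was the same with DESeq2's size factors in both groups. Bbc3 and Pmaip1 had few counts per tooth (7 to 27 and 7 to 56).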
